A study of Mus musculus with 7 samples.

Results

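The transcripts of 9 genes that work with RBPJ, the DNA-binding factor at the end of the Notch pathway, were measured in the mouse cerebellum with and without 1 knockout allele of L3mbtl3. The 9 genes were Rbpj, Kdm1a, Rcor1, Samd1, Spen, Hdac1, Rita1, Maml1 and Maml2. They were chosen by symbol for the known roles of their proteins, out of 55450 genes in the files, with earlier results of these data known. The 9 genes have 51 of the 141767 annotated transcripts. Polyadenylated RNA came from C57BL/6 cerebella at postnatal day 15, from 3 wild-type (WT) pups' cerebella and from 4 heterozygous mice (L3mbtl3 KO/+) in which 1 allele of L3mbtl3 is a knockout and the other wild-type. The sources used here do not give the structure of the knockout allele, the sex of the pups or any litter. The question put to the data was whether the RNA of these 9 genes differed between the genotypes.

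Notch receptors release an intracellular domain that enters the nucleus and joins RBPJ on DNA. A mastermind-like protein (MAML1, MAML2 or MAML3) then completes an activating complex. Without that domain RBPJ binds corepressors instead. L3MBTL3, a reader of methylated lysine, binds RBPJ and brings KDM1A (also called LSD1), which removes methyl groups from histone tails. RCOR1 (CoREST) and the deacetylase HDAC1 form a core complex with KDM1A, and SAMD1 is a chromatin protein that binds unmethylated CpG-rich DNA and associates with both L3MBTL3 and KDM1A. SPEN (SHARP) links RBPJ to the NCoR corepressor complex. RITA1 binds RBPJ and carries it out of the nucleus. In the cerebellum at this age the last dividing granule neuron progenitors leave the cell cycle.

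The libraries held 29248360 to 43761792 estimated reads assigned to genes, and the 9 genes had between 500 and 4640 reads each in every library. Purkinje cell markers (7 of 7 detected, summed 3937 to 6125 CPM, the count scaled to library size) and mature granule neuron markers (9 of 9, summed 3727 to 5515 CPM) were present in every library. L3mbtl3 itself stood at 22.6, 26.8 and 23.2 CPM in the WT libraries, and the KO/+ libraries held 19.7, 17.4, 22.3 and 23.0 CPM. The KO/+ mean was 85.2% of the WT mean, the groups overlapped, and the exact two-sided permutation test gave p = 0.114, where 3 against 4 libraries cannot go below 0.0571. Without WT replicate 2 the difference of -3.58 CPM became -2.29. In TPM, a unit that also accounts for transcript length, the difference over all 7 libraries was -1.73 (exact two-sided permutation p = 0.343). WT replicate 3 and KO/+ replicates 1 and 2 stood apart from the other 4 libraries. Their 15 proliferation markers summed to 392, 444 and 407 CPM, against 827 to 1029 CPM elsewhere, and their 8 granule neuron progenitor markers summed to 268, 310 and 273 CPM, against 501 to 614 CPM. All 15 and all 8 were detected in some library, with none at 0 in all. Markers of Bergmann glia and astrocytes summed to 3599 to 4490 CPM over the 7 libraries, of oligodendrocyte precursors to 330 to 649, of myelinating oligodendrocytes to 7889 to 19070, of microglia to 85.1 to 143 and of vessels to 296 to 451 CPM. Choroid plexus markers, led by Ttr, ranged from 5.36 to 1399 CPM, with both genotypes in the low and the high libraries. Red blood cell markers summed to 990, 1388 and 924 CPM in KO/+ replicates 1 to 3, above every WT library (512 to 592 CPM), and to 486 CPM in KO/+ replicate 4. Of these 5 markers 0 were called and 4 had an unadjusted p under 0.05 by edgeR, against 3.15% of all genes tested. The median log2 fold change of the 5 was 0.86. Their part in the results on the 9 genes was not tested. In bulk tissue fewer cells of a type and less RNA per cell cannot be told apart.

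No difference between KO/+ and WT was detected for any of the 9 genes. All 9 passed the filter on low counts and 0 were called at an adjusted p of 0.05 by edgeR's quasi-likelihood test, as were 0.00% of all 16813 genes tested. At an unadjusted p of 0.05 the count was again 0 of 9, against 530 genes or 3.15% of all, and DESeq2 and limma-voom also called 0 genes at the adjusted threshold (597 and 497 genes at the unadjusted one). The CPM ranges of the 2 genotypes overlapped for every one of the 9. Of all genes 3.96% had ranges that did not overlap, so 0 of 9 does not set these genes apart. Fitted log2 fold changes of KO/+ relative to WT lay between -0.12 (Spen) and 0.09 (Rita1), with 3 above 0 and 6 below, and their median was -0.04 beside -0.0047 for all genes. The 9 genes remained uncalled when the proliferation marker score was added as a covariate and when WT replicates 1 and 2 were set against KO/+ replicates 3 and 4, both chosen after the data were seen. The plot of fold changes shows the 95% intervals that these libraries allow.

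Rbpj encodes the factor on which both the repressing and the activating complexes assemble. It lies on the plus strand of chromosome 5 from 53466152 to 53657362 (GRCm38). The WT libraries held 62.8, 63.1 and 46.9 CPM, and the KO/+ libraries 49.7, 47.6, 61.3 and 64.1 CPM. The libraries split into a low set (46.9 to 49.7 CPM) and a high set (61.3 to 64.1 CPM), each holding both genotypes. The means were 57.6 ± 9.27 CPM (SD, n = 3) and 55.7 ± 8.22 CPM (SD, n = 4). KO/+ was at a log2 fold change of -0.05 relative to WT (SE 0.146, edgeR adjusted p = 0.972), with an interval that ran from 0.766-fold to 1.22-fold.

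Kdm1a, the histone demethylase gene, lies on the minus strand of chromosome 4 from 136550540 to 136602723. WT libraries had 122, 116 and 89.6 CPM of it, while KO/+ libraries had 109, 88.3, 104 and 120.0 CPM. The lowest and the next lowest library, KO/+ replicate 2 and WT replicate 3, came from different genotypes. The log2 fold change was -0.05 (SE 0.135, edgeR adjusted p = 0.970), with an interval from 0.779-fold to 1.20-fold.

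Rcor1, which joins KDM1A to nucleosomes and to the deacetylases, is on chromosome 12 (111039351 to 111115901, plus strand). Its CPM values were 50.3, 53.5 and 38.7 in the WT libraries, followed by 42.1, 40.2, 51.7 and 54.3 in the KO/+ libraries. The same 3 libraries as for Rbpj were the low ones. KO/+ stood at 99.1% of the WT mean, and the fitted log2 fold change was -0.01 (SE 0.147, 0.784-fold to 1.25-fold).

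Hdac1, the deacetylase of the complex, is on chromosome 4 (129516104 to 129542713, minus strand). WT libraries were at 64.4, 60.1 and 49.5 CPM, KO/+ libraries at 59.8, 54.8, 56.7 and 62.3 CPM. All 4 KO/+ values lay within the WT range. A log2 fold change of 0.01 was fitted (SE 0.101, 0.857-fold to 1.18-fold). Of the 50-base windows of its main transcript, 58.67% also occur in other annotated genes, mostly the processed copy Gm10093, so reads could be split between them. Gm10093 was at only 0.104 to 0.365 CPM, and the summed means were 58.2 ± 7.78 CPM in WT and 58.6 ± 3.27 CPM in KO/+. For Rbpj 23.35% of windows were shared, chiefly with Rbpj-ps3, which was at 0.00 to 0.199 CPM.

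Samd1, on chromosome 8 (83997672 to 84000409, plus strand), was at 42.2, 39.2 and 31.8 CPM in WT. The KO/+ libraries gave 35.7, 34.3, 36.5 and 46.3 CPM. The lowest library was WT replicate 3 and the highest KO/+ replicate 4, so that KO/+ both started and ended higher, with a wide overlap. The log2 fold change was 0.02 (SE 0.135, 0.817-fold to 1.26-fold).

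Spen, the bridge from RBPJ to the NCoR complex, is on chromosome 4 (141467890 to 141538597, minus strand) and varied most among the 9. Its WT values were 100.1, 101 and 84.2 CPM, and its KO/+ values 67.2, 78.6, 95.9 and 108.5 CPM. KO/+ held both the lowest and the highest library, 1.62-fold apart. The means were 95.1 ± 9.47 CPM (SD, n = 3) and 87.5 ± 18.3 CPM (SD, n = 4), and the log2 fold change was -0.12 (SE 0.161, edgeR adjusted p = 0.957, 0.712-fold to 1.19-fold). Without KO/+ replicate 1 it was -0.01, and without KO/+ replicate 4 it was -0.25, neither of them called.

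Rita1, the exporter of RBPJ, is on chromosome 5 (120594305 to 120612589, minus strand). The 3 WT libraries were close together at 17.2, 17.1 and 17.4 CPM. In KO/+ the values were 21.4, 18.0, 17.1 and 16.9 CPM, so that only replicate 1 stood clearly above the others. Relative to WT the log2 fold change was 0.09 (SE 0.104), and 0.01 without that library. The annotation places 9.49% of the exon bases of Rita1 opposite exons of Iqcd on the other strand, and the sources used here do not name the strand setting of the counting.

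The coactivator genes Maml1 and Maml2 showed no called difference either. Maml1, on chromosome 11 (50255634 to 50292311, minus strand), had WT values of 24.1, 26.1 and 20.2 CPM and KO/+ values of 20.1, 19.1, 22.8 and 26.9 CPM, with a log2 fold change of -0.08 (SE 0.141, 0.757-fold to 1.19-fold). Maml2, on chromosome 9 (13297957 to 13709388, plus strand), had WT values of 19.3, 18.9 and 17.6 CPM and KO/+ values of 17.5, 18.4, 17.5 and 19.2 CPM. All 7 libraries of Maml2 lay within 1.10-fold of each other, the narrowest span of the 9. Its log2 fold change was -0.04 (SE 0.0816), and the interval from 0.856-fold to 1.11-fold was also the narrowest.

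**Figure D1:**
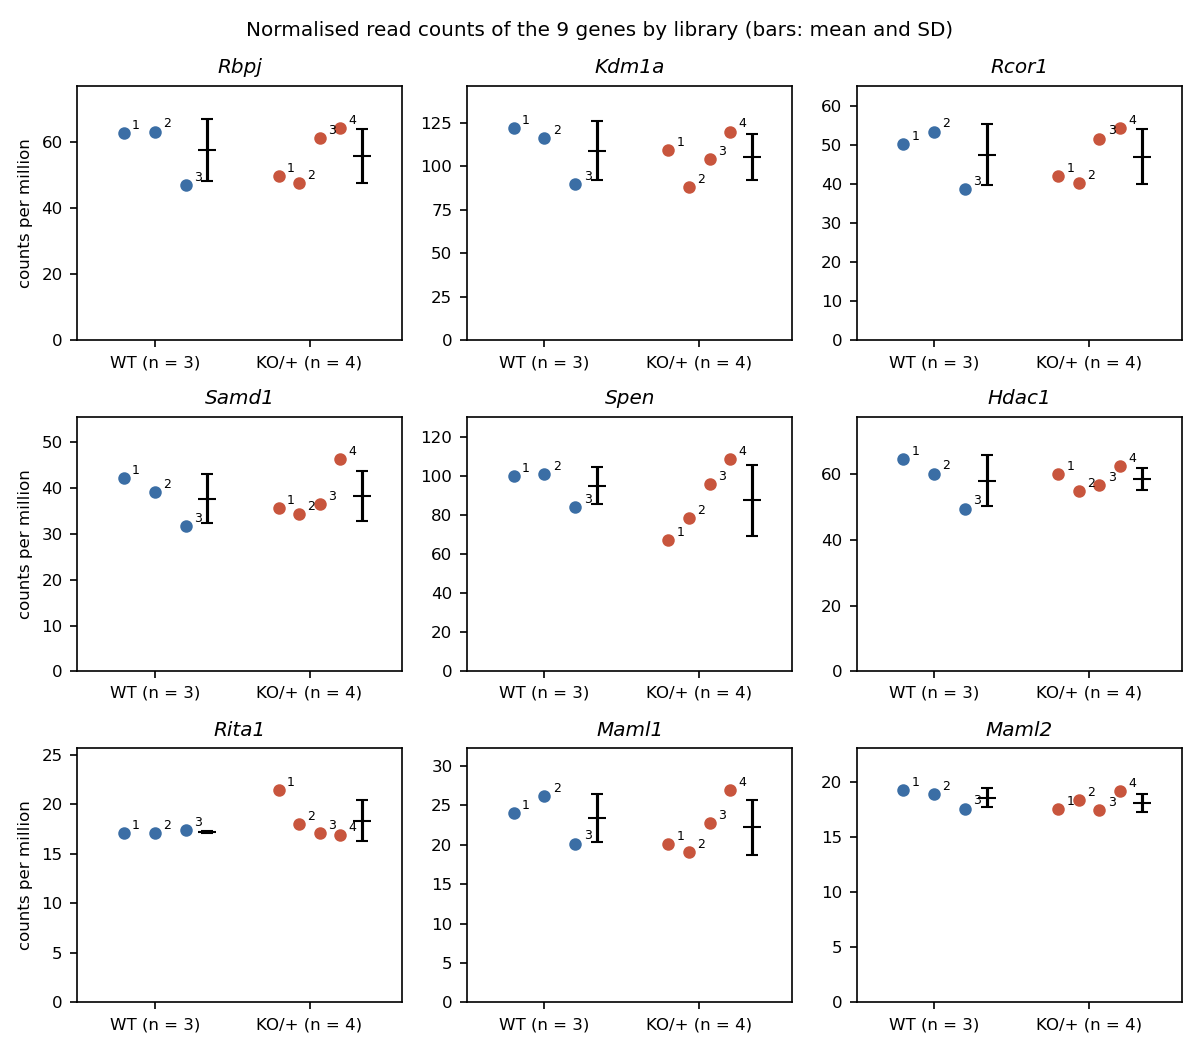
CPM (y axis, from 0) of each of the 9 genes in the 3 WT (blue) and 4 KO/+ (red) libraries, numbered by replicate, with bars for the mean and SD of each group. The genotypes overlap in every panel, from Rbpj (46.9 to 64.1) to Maml2 (17.5 to 19.3).

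In TPM, the deposited unit that accounts for transcript length and allows genes to be compared, the 9 genes covered a wide range of levels. Kdm1a was highest at a mean of 75.9 ± 11.6 TPM (SD, n = 7), followed by Hdac1 at 57.1 ± 6.58 TPM and Samd1 at 51.1 ± 8.10 TPM. The ranges of these 3 overlapped, although Kdm1a was above Hdac1 in 7 of 7 libraries and Hdac1 above Samd1 in 6 of 7. The incomplete models Samd1-203 and Kdm1a-208 made up 81.9% of Samd1 TPM and 19.7% of Kdm1a TPM. Short models count for more in TPM, and the effect of these 2 models on the order was not tested. Rita1 came next at 27.0 ± 2.48 TPM, apart from Samd1 above it and from Rbpj below it in every library. Rbpj (17.4 ± 3.11 TPM), Spen (13.6 ± 2.57 TPM) and Rcor1 (13.3 ± 2.35 TPM) formed the next set. Spen exceeded Rcor1 in 4 of 7 libraries, so that pair was not ordered beyond its spread. The coactivator genes were lowest, with Maml1 at 6.63 ± 1.17 TPM and Maml2 at 5.65 ± 0.471 TPM. L3mbtl3 lay between Rcor1 and Maml1 at 9.85 ± 1.79 TPM.

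Close relatives of several of these genes were expressed beside them. Hdac2, the other deacetylase of the CoREST complex, had a mean of 143 TPM and Rcor2 one of 70.4 TPM, both above Hdac1 and Rcor1 respectively. Rcor3 had a mean of 24.1 TPM, Kdm1b, a related demethylase, 11.5 TPM and Maml3, the third mastermind-like gene, 9.01 TPM. None of these 5 was called, and the fitted log2 fold changes ran from -0.23 (Rcor2) to 0.08 (Hdac2). Rcor2 spanned 53.2 to 131 CPM over the 7 libraries, a 2.47-fold range, with its 3 lowest values in WT replicate 3 and KO/+ replicates 1 and 2.

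Within each genotype the 9 genes varied between libraries, and several varied together. WT replicate 3 and KO/+ replicates 1 and 2 were the 3 lowest libraries for 5 of the 9 genes (Rbpj, Rcor1, Samd1, Spen and Maml1), as they were for 14.0% of all genes tested. They were the 3 highest for 1 of the 9, Rita1, and for 12.6% of all genes. These 3 libraries were picked after their values were seen, and they are the same ones that were lowest for 15 of 15 proliferation markers and 8 of 8 progenitor markers. The median of the 9 centred log2 CPM values was -0.23 in WT replicate 3, -0.19 in KO/+ replicate 2 and -0.08 in KO/+ replicate 1. In KO/+ replicate 3 it was -0.03, and it reached 0.13, 0.15 and 0.19 in WT replicates 2 and 1 and KO/+ replicate 4. The part that proliferating cells have in the levels of the 9 genes was not tested.

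**Figure D2:**
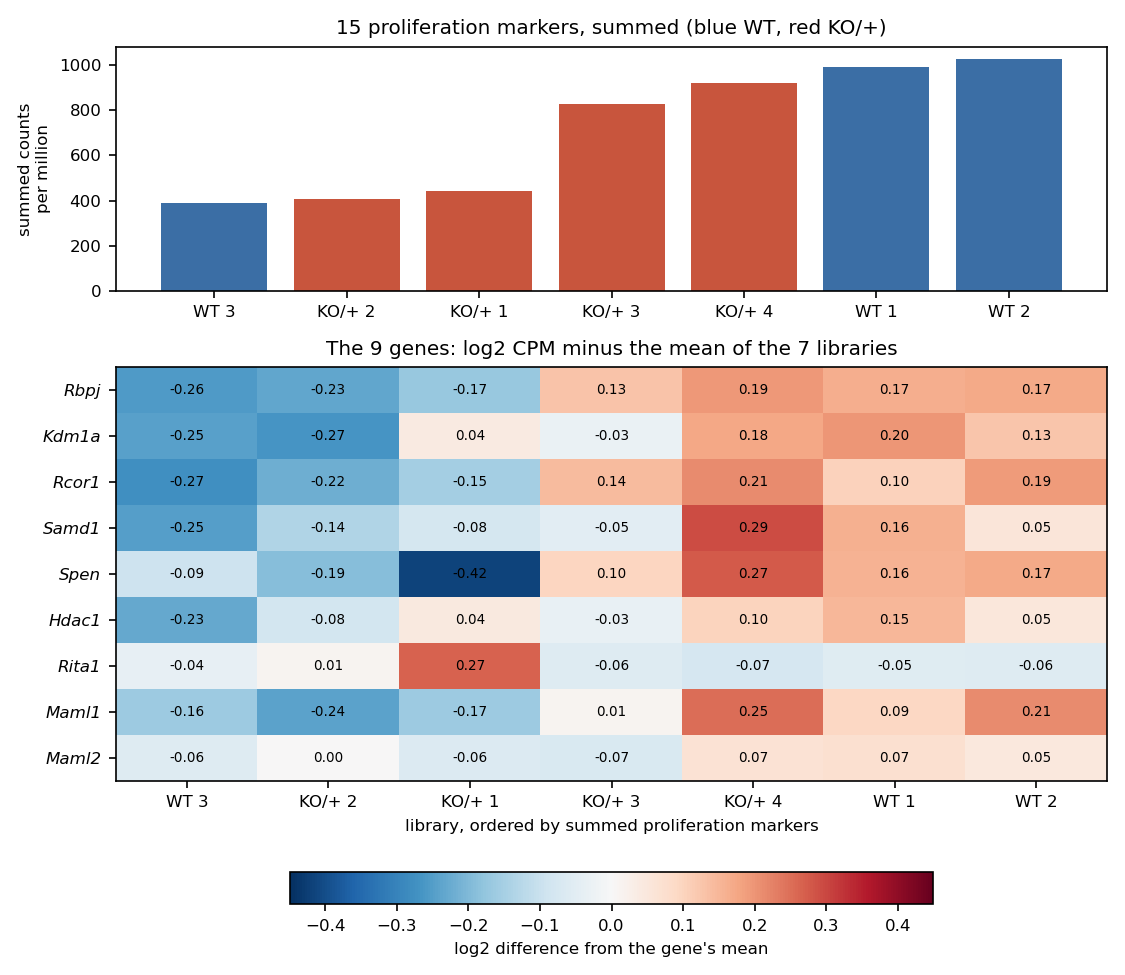
Top, summed CPM of 15 proliferation markers in each library (blue WT, red KO/+, y axis from 0); bottom, log2 CPM of each of the 9 genes minus its mean over the 7 libraries, with libraries in the same order. Rbpj, Rcor1, Samd1, Spen and Maml1 are lowest in the 3 libraries at the left (392 to 444 summed CPM), Rita1 is highest there, and Maml2 varies least.

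The 9 genes differed in how much they varied. Across the 10519 genes whose mean reached 10 CPM the median SD of log2 CPM over the 7 libraries was 0.141. Spen (0.244), Rbpj (0.209), Rcor1 (0.208), Maml1 (0.195), Kdm1a (0.191) and Samd1 (0.184) lay above it, and Hdac1 (0.128), Rita1 (0.121) and Maml2 (0.0623) below it. Of the 36 pairs among the 9, Rbpj and Rcor1 were the most alike, with a root mean square difference of centred log2 CPM of 0.0277 over the 7 libraries. Spen and Rita1 were the least alike, at 0.328.

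Among all 10519 genes those most like Rbpj in this measure were Dyrk2 (0.0243) and Impdh2 (0.0265). Rcor1 was closest to Rbpj itself and then to Bcl7a (0.0313), and Kdm1a had Ncoa5 (0.0335) among its nearest. Samd1 was closest to Sfswap (0.0166) and Zfp512b (0.0315), and Maml1 to Lrp8 (0.0274) and Phrf1 (0.0280). For Spen the nearest were Rai1 (0.0503) and Slc7a5 (0.0554), at a greater distance than for the other 5. All of these genes share the same 7 libraries, and the likeness is a description over them.

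The wider CoREST complex showed no called change. Of its 12 further genes 10 passed the filter (Gfi1 and Gfi1b did not), 0 were called, and 2 had fold changes above 0 and 8 below, with a median log2 fold change of -0.03. The smallest unadjusted p values belonged to Zmym3 (log2 fold change -0.19, SE 0.125), Gse1 (-0.31, SE 0.295) and Hdac2 (0.08, SE 0.123). Zmym3 and Gse1 encode proteins that associate with the complex. Gse1 spanned 57.8 to 132.5 CPM, with KO/+ replicates 1 and 2 and WT replicate 3 lowest. These were the 3 lowest libraries, in any order, for 7 of the 10 tested genes, against 14.0% of all genes. Zmym2 had no overlap between genotypes, but its means were 115 ± 1.05 CPM in WT and 117 ± 1.42 CPM in KO/+, a log2 fold change of 0.03 (unadjusted p = 0.669). It was the only 1 of the 10 without overlap, where 3.96% of all genes had none, and was named after its values were seen.

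The NCoR complex, the partner that SPEN recruits, had 6 of 6 genes tested, 0 called, 1 fold change above 0 and 5 below, and a median of -0.08. Ncor1 had WT values of 333, 351 and 289 CPM against KO/+ values of 274, 266, 283 and 336 CPM. KO/+ replicate 4 lay among the WT values and the other 3 KO/+ libraries below them. This gave a log2 fold change of -0.16 (SE 0.112). Tbl1x, a subunit of the complex, was at -0.10 (SE 0.0854).

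Among 19 other genes for RBPJ corepressors and their partners, all 19 were tested, 0 were called, 10 fold changes were above 0 and 9 below, and the median was 0.01. An unadjusted p under 0.05 was seen for 2 of the 19, Cir1 and Tle4, against 3.15% of all genes. Cir1, a corepressor that binds RBPJ directly, had WT values of 62.0, 62.8 and 65.1 CPM and KO/+ values of 91.2, 82.6, 72.5 and 63.6 CPM. KO/+ replicate 4 lay within the WT values and the other 3 above them. Its log2 fold change was 0.29 (SE 0.120, edgeR unadjusted p = 0.0403, adjusted p = 0.957).

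Tle4, a Groucho-type corepressor gene, had WT values of 24.6, 25.7 and 27.1 CPM and KO/+ values of 20.0, 22.2, 24.0 and 23.4 CPM. Every KO/+ library lay below every WT library. Its log2 fold change was -0.21 (SE 0.0885, edgeR unadjusted p = 0.0481, adjusted p = 0.957). Snw1, which encodes SKIP, an adaptor of both the repressing and the activating complex, had WT values of 99.8, 98.9 and 93.9 CPM and KO/+ values of 123, 117, 105 and 99.9 CPM. Every KO/+ library lay above every WT library, with 99.9 CPM in KO/+ replicate 4 next to 99.8 CPM in WT replicate 1, and a log2 fold change of 0.19 (SE 0.0880, adjusted p = 0.957). Neither gene passed the threshold over all genes. They were 2 of the 19 genes without overlap between the genotypes, against 3.96% of all genes.

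The coactivator side had 8 of 8 genes tested and 0 called, with 5 fold changes above 0, 3 below and a median of 0.03. Ep300, the acetyltransferase brought in by the mastermind-like proteins, had WT values of 94.9, 108.3 and 85.7 CPM and KO/+ values of 67.1, 70.8, 80.2 and 97.8 CPM. The groups overlapped through KO/+ replicate 4, and the log2 fold change was -0.29 (SE 0.141, edgeR unadjusted p = 0.0758). Ccnc, the cyclin that acts in turnover of the Notch intracellular domain, was at 0.11 (SE 0.0699), and the acetyltransferase gene Kat2b at 0.19 (SE 0.140). Of 8 genes for L3MBTL3 and its relatives and partners, all 8 were tested, 0 were called and 7 had fold changes below 0, with a median of -0.14. L3mbtl3 is 1 of those 7 and had the smallest unadjusted p, followed by Sfmbt1 (-0.16, SE 0.0971) and Sfmbt2 (-0.19, SE 0.131), both encoding proteins with the same type of methyl-lysine-binding domain.

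The mix of transcripts was examined for the same genes. Of their 51 annotated transcripts 32 passed the filter, and 0 were called by edgeR, as were 0.00% of 44375 transcripts. An unadjusted p under 0.05 was seen for 1 of the 32, Hdac1-202, against 2.71% of all transcripts. The mix itself was tested in 8 genes, since only 1 Rcor1 transcript passed the filter, and 0 were called, against 0.267% of 10107 genes (Simes test on edgeR's diffSpliceDGE). At the unadjusted threshold the count was again 0 of 8, against 2.04% of all genes. The assignment of reads to overlapping transcripts is an estimate, and its uncertainty is not part of these tests.

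Kdm1a carries 2 short exons that are known to be optional, and these are shown because they define the forms of KDM1A that the transcripts would encode. The exon of 12 bases, known from the neuronal form of the enzyme, lies at chr4:136563438-136563449 on the minus strand. Below it stands in capitals between the last 24 bases of the exon before and the first 24 of the exon after, followed by the junction without it.
Kdm1a with the 12-base exon: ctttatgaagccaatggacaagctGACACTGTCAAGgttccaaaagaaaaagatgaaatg
Kdm1a without it: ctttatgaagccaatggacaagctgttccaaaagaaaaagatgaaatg
The exon of 60 bases, at chr4:136582040-136582099 on the minus strand, is shown in capitals with 18 bases on each side.
Kdm1a with the 60-base exon: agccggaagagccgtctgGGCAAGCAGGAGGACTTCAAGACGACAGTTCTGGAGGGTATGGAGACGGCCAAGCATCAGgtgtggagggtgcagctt
Kdm1a without it: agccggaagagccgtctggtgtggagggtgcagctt
The coding length of the transcript with the 60-base exon (Kdm1a-202) is 2619 bases and that of the transcript without either exon (Kdm1a-203) 2559 bases.

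The shares of both Kdm1a exons overlapped between the genotypes. The 12-base exon is held by only 1 annotated transcript, Kdm1a-208, whose model is incomplete at 965 bases. Of Kdm1a TPM it made up 18.8%, 19.6% and 21.6% in the WT libraries. The KO/+ libraries gave 20.7%, 21.2%, 18.5% and 17.7%. The ranges overlapped, and the means were 20.0% ± 1.45 (SD, n = 3) and 19.5% ± 1.70 (SD, n = 4; exact two-sided permutation p = 0.743, smallest possible 0.0571). In assigned reads, where a short model counts for less, its share was 5.82% ± 0.444 in WT and 5.60% ± 0.545 in KO/+. The difference of -0.47 percentage points of TPM turned to 0.34 without WT replicate 3.

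The 60-base exon was in 39.5%, 42.8% and 45.9% of the TPM of transcripts that span its position in WT. In KO/+ it was in 39.7%, 39.7%, 39.7% and 40.9%. The 4 KO/+ libraries were close together and inside the WT range. The means were 42.8% ± 3.19 (SD) in WT and 40.0% ± 0.586 (SD) in KO/+, and this share was not tested on its own. Kdm1a-203, without either exon, was the main form at a mean of 43.0% of the gene, followed by Kdm1a-202 at 30.3%.

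Spen has an optional exon of 69 bases, at chr4:141480746-141480814 on the minus strand, which separates its 2 long coding transcripts and is shown for that reason in capitals between 18 bases on each side.
Spen with the 69-base exon: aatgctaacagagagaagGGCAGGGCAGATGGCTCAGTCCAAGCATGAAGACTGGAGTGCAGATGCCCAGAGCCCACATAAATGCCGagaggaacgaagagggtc
Spen without it: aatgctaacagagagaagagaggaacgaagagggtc
The coding lengths are 10929 bases with the exon (Spen-202) and 10860 bases without it (Spen-201). Of the TPM of spanning transcripts it had 33.4%, 22.9% and 28.7% in the WT libraries. The KO/+ libraries had 21.0%, 32.7%, 36.6% and 23.2%. High and low libraries occurred in both genotypes, and the means were 28.3% ± 5.27 and 28.4% ± 7.49. The short noncoding transcript Spen-205 made up a mean of 13.4% of the gene's TPM, where a short model counts for more. That share rested on only 7 to 20 estimated reads per library, against 1812 to 2848 for Spen-201.

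Among transcripts with a mean share of at least 10%, the share of 1, from Hdac1, did not overlap between the genotypes. Its main coding transcript, Hdac1-201, made up 85.7%, 85.0% and 85.5% of the gene in WT and 90.3%, 90.5%, 88.8% and 87.1% in KO/+. There were 17 such transcripts in the 9 genes, and 4.12% of all transcripts past this share did not overlap. Hdac1-202, a transcript with a retained intron, had WT values of 1.34, 0.807 and 0.909 CPM and KO/+ values of 0.522, 0.577, 0.593 and 0.768 CPM. Every KO/+ value lay below every WT value, from 18 to 52 estimated reads per library. Its log2 fold change was -0.73 (SE 0.288, edgeR unadjusted p = 0.0361, adjusted p = 1.00). The test of the mix of Hdac1 transcripts gave an adjusted p of 1.00, so the shift did not pass. Rita1-207 was the other of 2 transcripts among the 32 with no overlap in CPM, beside 4.23% of all transcripts, and its unadjusted p was 0.166. Below a share of 10%, Rbpj-201 made up 5.64%, 3.14% and 3.25% of Rbpj in WT and 2.62%, 1.80%, 3.10% and 1.81% in KO/+. These shares did not overlap, but 3.10% in KO/+ replicate 3 lay next to 3.14% in WT replicate 2. The shares of Hdac1-202 did not overlap either. How often this occurs among all transcripts below 10% was not computed, and Rbpj-201 was named after its values were seen. The CPM of Rbpj-201 overlapped between the genotypes (log2 fold change -0.86, SE 0.373, edgeR unadjusted p = 0.0505, adjusted p = 1.00).

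**Figure D3:**
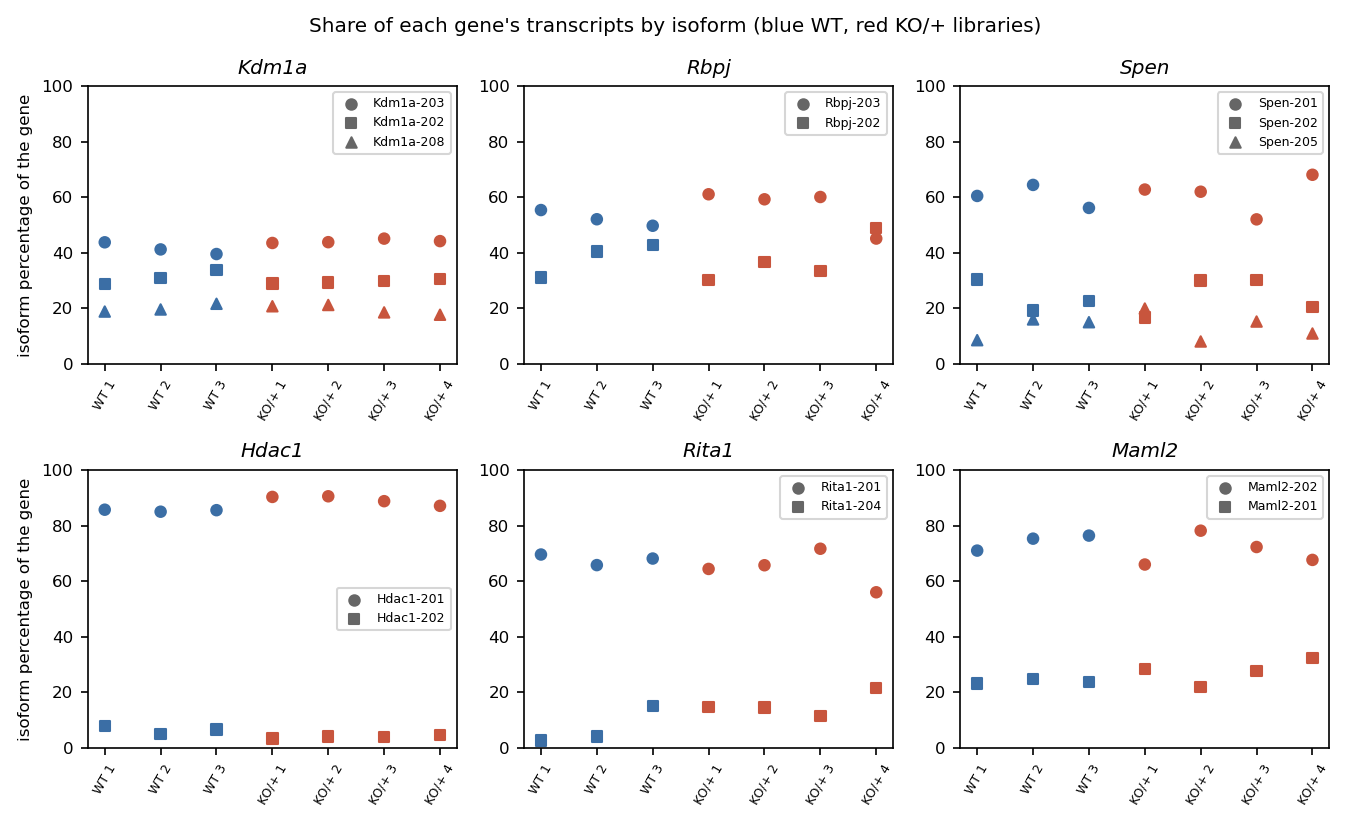
Share of each gene's transcripts (y axis, isoform percentage from 0 to 100) made up by the named isoforms of 6 genes in the 3 WT (blue) and 4 KO/+ (red) libraries, with a marker shape for each isoform. Hdac1-201 lies at 85.0 to 85.7 in WT and 87.1 to 90.5 in KO/+, the Kdm1a isoforms stay nearly level, and Rbpj-203 falls below Rbpj-202 in KO/+ replicate 4 alone.

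Rbpj RNA was divided between 2 coding transcripts that differ in their first exon. Rbpj-203 made up 55.4%, 52.0% and 49.7% in WT and 61.0%, 59.2%, 60.1% and 45.1% in KO/+, and Rbpj-202 a mean of 37.6%. The KO/+ libraries other than replicate 4 lay above the WT range and replicate 4 below it. Rita1-204, an incomplete model, made up 2.59%, 4.05% and 15.2% of Rita1 in WT and 14.7%, 14.5%, 11.4% and 21.5% in KO/+. WT replicate 3 lay among the KO/+ libraries, and the values rested on 7 to 54 estimated reads. Relative to the rest of the gene its diffSpliceDGE unadjusted p was 0.0499 and its adjusted p 1.00. It had the smallest p of the transcripts tested this way, and the only 1 under 0.05. Those tested were the 32 past the filter, less the 1 of Rcor1. Of all 37933 transcripts tested this way 1.38% were under 0.05.

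Rcor1-201 made up the whole of Rcor1 in each library. Maml1-201 made up a mean of 96.1% of Maml1, and Maml2-202 and Maml2-201 72.4% and 26.0% of Maml2. Samd1-203, an incomplete model, made up 81.9% of Samd1 and the full model Samd1-201 17.7%. The shares of all of these overlapped between genotypes.

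The promoters of the 9 genes were read for GTGGGAA, the core motif bound by RBPJ. Both strands of the 250 bases before each start were read (RefSeq, GRCm38.p6). Promoters were matched for 7 of the 9 genes, 9 promoters in all, and Samd1 and Hdac1 were not matched. The motif occurred in 1 of the 9 promoters, that of Spen, and in 5.415% of 32851 promoters. It is shown in capitals within the window chr4:141538598-141538616 on the minus strand, close to the start of the gene.
Spen promoter: gcgcgcgccgGTGGGAAgc
A match of letters is a description of the sequence, and no binding was measured here.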

How the data were processed

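Libraries were made from polyadenylated RNA with a directional kit, per the labels' protocols. Per the submitters' processing notes, the tools were bcl2fastq, Trimmomatic (version 0.39), STAR (version 2.5.2a) and RSEM (version 1.3.1), with mm10 and GRCm38 given as genome builds. RSEM's expected counts, as deposited, are estimated numbers of reads for each gene or transcript. TPM and FPKM, also deposited, scale those by length and library, and FPKM entered no result here. The isoform percentage column, as deposited, gives each transcript as a percent of its gene's TPM. Whole-series tables were not used. No source used here gives the strand or aligner settings.

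The 7 per-library files gave all values. Expected counts were rounded, filtered (filterByExpr), scaled (TMM) and tested with edgeR 4.0.16 (glmQLFit, robust, glmQLFTest) with no covariate and Benjamini-Hochberg adjustment over all genes or transcripts, threshold 0.05. SE is the absolute log2 fold change divided by the square root of F. Isoform use was tested with diffSpliceDGE. L3mbtl3 and the Kdm1a exon share were compared by exact permutation over 35 splits. Centred log2 CPM used a prior count of 2. Alternatives used DESeq2 1.42.0 and limma 3.58.1, other scalings and filters, a replicate block and leaving out each library. The scripts were tested on simulated data. Software was Python 3.11.15 with SciPy 1.17.1, and R 4.3.3. No 2 libraries of the same genotype agreed within sampling noise. Whether the WT cerebella came from separate litters is not stated, so p-values measure the spread between these samples.

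All 55450 gene IDs were found in GENCODE M21 (GRCm38), the source of positions, transcript names and exon sequences. The 9 genes and the lists were chosen with earlier results of these data known. Named besides the 9 genes and L3mbtl3 were up to 3 genes per pathway list with the smallest p, transcripts with a mean isoform percentage of at least 10, and for genes above the median SD the 2 genes (mean of at least 10 CPM) nearest in centred log2 CPM. Some genes that this rule names are not reported here. Paralogues of the 9 genes, Hdac1-202, Rita1-207, Rbpj-201, Zmym2 and the copies of Hdac1 and Rbpj were added after the values were seen. The marker lists also covered glia, oligodendrocyte precursors, myelinating oligodendrocytes, microglia, vessels, choroid plexus and red blood cells.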

Additional observations from a re-analysis of the deposited data

Results flagged for a closer look

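Of 40 groups of 4 KO/+ values examined, 3 held a library far from the other 3 relative to the range of the group. Chance alone marks about 1 in 20 groups. Zmym3, which encodes a protein of the CoREST complex, was at 100.6 CPM in KO/+ replicate 4 and at 73.1 to 76.9 CPM in the other 3. Sfmbt1, a relative of L3mbtl3, was at 34.7 CPM in KO/+ replicate 4 and at 27.4 to 28.5 CPM in the others. The isoform percentage of Rbpj-203 was 45.1 in KO/+ replicate 4 and 59.2 to 61.0 in the others. In all 3 the library apart was KO/+ replicate 4, which also had the fewest assigned reads (29248360) of the 7. Its summed proliferation markers were the highest of the KO/+ libraries (919 CPM). Its summed markers of myelinating oligodendrocytes were the lowest of the 7 (7889 CPM). What set this library apart was not tested.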

How the results depend on the processing

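The count of the 9 genes called was 0 under every alternative run. Of 171 fold changes of these genes under 19 alternatives, 143 kept their sign, 28 changed it and 0 passed the threshold (smallest adjusted p 0.590). With limma-trend on TPM after log2 and a pseudocount of 1 or 0.1, Samd1 was at -0.034 and -0.035, and Hdac1 at -0.077 and -0.079. With the proliferation score as a covariate Rbpj was at 0.040, Kdm1a at 0.026 and Rcor1 at 0.075. With WT replicates 1 and 2 against KO/+ replicates 3 and 4, Rcor1 was at 0.026, Spen at 0.021, Hdac1 at -0.068 and Rita1 at -0.012, and 2 of all genes were called (Fam220a and Gm42418). Both were added after the data were seen. The cause of these changes was not tested.

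Deviations from the group means of same-numbered libraries correlated at 0.322 (replicate 1), -0.176 (replicate 2) and -0.171 (replicate 3). Differently numbered pairs reached -0.689 (WT replicate 1 with KO/+ replicate 2) and 0.590 (WT replicate 3 with KO/+ replicate 2). These correlations cannot tell whether the numbers mark a shared litter or batch. No WT library shares the number of KO/+ replicate 4, so with a replicate block that library adds nothing to the genotype difference. With the replicate block 1 gene was called (Eif3j2), Samd1 was at -0.077 and Hdac1 at -0.015. For isoform use 43 genes were called in place of 27, and 1029 genes had an unadjusted p under 0.05 in place of 530. Isoform use fell to 3 called genes with a filter of 1 CPM, which tests fewer transcripts.

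Leaving out 1 library at a time gave 0 to 1 called genes (Wdfy1 without WT replicate 2, Fam220a without WT replicate 3, Eif3j2 without KO/+ replicate 4), 0 to 2 called transcripts, 22 to 62 genes called for isoform use and 180 to 1562 genes at the unadjusted threshold. The median of the 9 genes ran from -0.14 (without WT replicate 3) to 0.03 (without KO/+ replicate 2). Fold changes ran from -0.18 to 0.020 for Rbpj, -0.17 to 0.030 for Kdm1a, -0.14 to 0.071 for Rcor1, -0.10 to 0.10 for Samd1, -0.094 to 0.085 for Hdac1, -0.25 to -0.01 for Spen, 0.01 to 0.12 for Rita1, -0.19 to -0.0011 for Maml1 and -0.08 to -0.02 for Maml2. The difference in the 12-base exon share ran from -1.06 to 0.34, with 0.15 without KO/+ replicate 4, and that of L3mbtl3 from -4.37 to -2.29 CPM. With 3 and 4 libraries the intervals of the 9 genes leave room for changes of 0.712-fold (Spen) to 1.26-fold (Samd1 and Rita1).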
